A study of Homo sapiens with 12 samples.

Results

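Compound 955 was compared with vehicle in MOLT4 cells after the shortest exposure of the study, 1 h. Of the 12 samples of the series, 6 enter this comparison. They are the 3 titled as 955 at 0.1 µM for 1 h and the 3 titled as DMSO for 6 h, chosen by their titles. Of the other 6 samples, 3 had 955 at the same dose for 6 h, and 3 had 1 µM SNS-032, also for 6 h. MOLT4 is an established human T lymphoblast line from an acute lymphoblastic leukaemia, and the labels give it as wild type in every group. SNS-032 is an inhibitor of cyclin-dependent kinases, and 955 is a piperlongumine conjugate that carries SNS-032 as its warhead, made to degrade the proteins the warhead binds.

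CDK9, one of the kinases that SNS-032 inhibits, joins with cyclin T to form P-TEFb. P-TEFb releases RNA polymerase II from its pause shortly after the start site and so allows elongation of most messenger RNAs. When elongation stops, mRNAs and proteins that are made and degraded quickly are lost first. Among these are feedback inhibitors of signalling pathways, cell-cycle regulators and many transcription factors. Stable transcripts, such as those of ribosomal proteins, persist, and mitochondrial transcripts are made by a different polymerase. This is background and was not tested here.

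Vehicle was collected at 6 h only, so treatment and time in culture cannot be told apart in any value at 1 h. The values come from the authors' deposited table of comparisons, and no value per sample was used. A log2 fold change, average level or false discovery rate (FDR) given below without another source is from the authors' deposited table. The labels number the replicates but do not say whether they were separate cultures, so the spread on which the test behind the FDR rests may be technical. A standard error (SE) or 95% interval was derived from the fold change and its F statistic, and follows the authors' model rather than the SD of replicates. The degrees of freedom recovered from F and p were most often 23.3 and at lowest 8.23, more than these 6 samples alone leave. The error therefore also draws on other samples, other genes or both. The average level is in log2 CPM, counts relative to the library's total, over all samples and does not describe a group.

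The authors' deposited table lists 5759 genes, and 28395 tests were recovered from its p-values and FDRs. Genes were listed for a change in any of 3 comparisons: 5757 combined an FDR under 0.05 with at least a 2-fold difference within 1 comparison, and 5670 of these did so at 6 h. A gene that is not listed is therefore not a gene at 0. Of 16 T lymphoblast markers, 7 are listed (CD2, CD3G, CD4, CD7, DNTT, LAT and ZAP70), at average levels from 4.75 to 10.14, and 0 passed the threshold at 1 h. The B cell marker CD79A is listed at 3.94, none of the 7 myeloid markers is listed, and COL1A1 is the only fibroblast marker, at 3.18.

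At 1 h, 486 of the 5759 listed genes (8.44%) passed the threshold, an FDR under 0.05 with at least a 2-fold difference. Of these, 444 fell (7.71%) and 42 rose (0.729%). Against all 28395 tests the 486 genes are 1.71%. An FDR under 0.05 alone, with no bound on the fold, was met by 958 listed genes (16.6%), 686 of them lower and 272 higher, and by 272 further tests that are not listed. Most falls were moderate. The median of the lower genes was -1.32, which is 39.9% of the DMSO level, with 302 genes between -1 and -1.5, 106 between -1.5 and -2, and 36 below -2. Over all listed genes the median was -0.054 and the quartiles were -0.49 and 0.28, beside a median SE of 0.23. The lower genes had a lower average level than the list as a whole, with a median of 3.52 against 4.15, and 311 of the 444 lay under the median level. Of the 42 higher genes, 34 lay under it. The level includes the treated samples, so a fall itself lowers it and a rise raises it. These figures therefore do not say how abundant the genes were in DMSO.

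The scale of these values bears on every count. The 13 mitochondrially encoded mRNAs lay between 0.42 and 0.73 above DMSO (median 0.67), and the 64 listed ribosomal protein mRNAs had a median of 0.41. When every value was shifted so that the mitochondrial mRNAs were at 0, 1597 genes were lower (27.7%) and 11 higher. With the ribosomal protein genes at 0, 963 were lower and 14 higher. The split was 8.64% higher as deposited, 0.684% on the mitochondrial scale and 1.43% on the ribosomal scale. RNA amounts per cell were not given in the sources used here, and in bulk samples fewer living cells and less RNA per cell cannot be told apart. Below, a list is read against the 7.71% of listed genes that fell, on the deposited scale, with the mitochondrial scale beside it. The lists and their members were chosen with earlier results of these data known. Their shares and their order are therefore descriptions and give no independent support for a pathway.

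**Figure D1:**
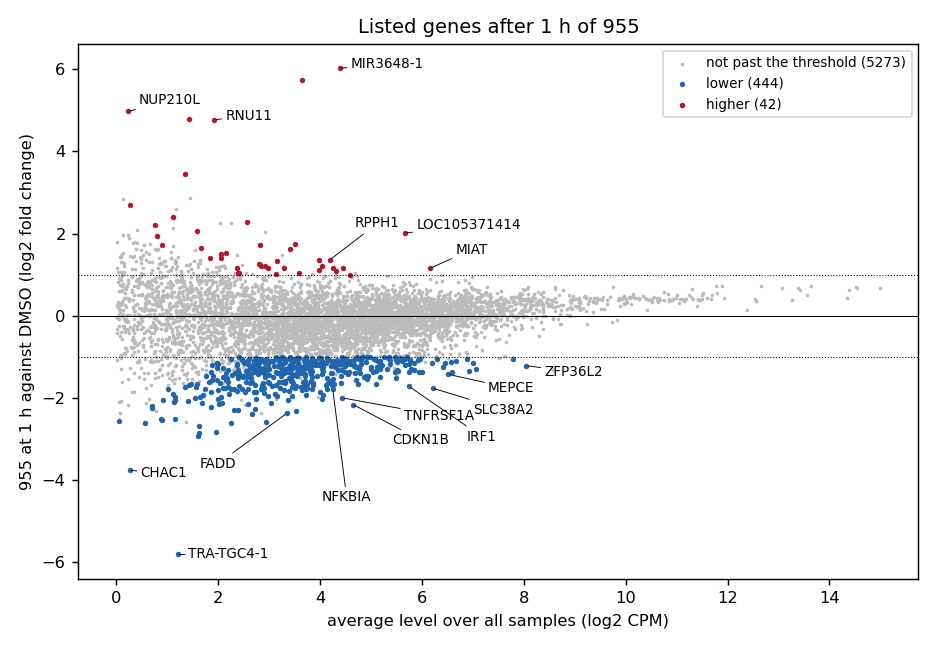
Each point is 1 of the 5759 listed genes, with its average level over all samples (log2 CPM) on the x axis and its log2 fold change at 1 h on the y axis; dotted lines mark 1 and -1. Of the 444 lower genes 311 lie below the median level of 4.15, and the most abundant transcripts form a narrow band above 0.

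Feedback inhibitors and stress sensors of signalling pathways, called immediate early feedback genes here, had the largest share of falls among the chosen lists with at least 5 listed genes. Of 25 listed genes, 13 fell (52.0%) and 0 rose, all 25 values were negative, and the median was -1.57. On the mitochondrial scale 23 of the 25 were lower (92%), beside 27.7% of all listed genes. DUSP2, a phosphatase that switches off MAP kinases, fell by 2.12 on the log2 scale (SE 0.31), to 23.0% of DMSO, at an FDR of 0.000153. SPRED2, which restrains Ras signalling to ERK, had an FDR of 1.2e-05 at a fold change of -1.33. DUSP7 (-1.40), DUSP6 (-1.64) and SPRY2 (-1.62), all brakes on the same kinases, passed as well. SOCS1, which blocks JAK kinases after cytokine stimulation, fell by 1.86 (SE 0.31). Its relative SOCS3 was at -2.51, at an average level of only 0.87, so its value is less precise (SE 0.67). The kinases PIM1 (-1.63) and PLK3 (-1.77), the stress protein GADD45B (-1.52), IER5 (-1.75), ARRDC2 (-1.13) and CSRNP1 (-2.04) completed the 13. DUSP1 had the lowest value of the list, -2.59, but its FDR of 0.12 did not pass.

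The immediate early transcription factors were less uniform. Of 9 listed genes, 2 fell (22.2%), with a list median of -1.09, and 4 of 9 were lower on the mitochondrial scale (44.4%). These were FOSL2, an AP-1 subunit (-1.31, FDR 0.0166), and TSC22D1, a leucine zipper protein (-1.26, FDR 0.000221). JUNB, another AP-1 subunit, had a value of -0.92 at an FDR of 0.0505, just outside the threshold. IER2 was at -0.77 (FDR 0.199), and FOS was at 0.40 with an interval from -0.46 to 1.26. FOS was the highest of the 9, and on the mitochondrial scale its value was -0.28. JUN is not listed.

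Genes of the NF-kB and TNF receptor pathway were another of the chosen lists. NF-kB is a family of transcription factors held in the cytoplasm by inhibitor proteins whose genes are themselves NF-kB targets. Of 19 listed members 5 fell (26.3%), 0 rose and the median was -0.56. On the mitochondrial scale 11 of the 19 were lower (57.9%). The 5 were 3 parts of receptor signalling and 2 inhibitors. FADD, the adaptor that links death receptors to initiator caspases, fell by 2.37 (SE 0.24), to 19.3% of DMSO, at an FDR of 2.37e-06. TNFRSF1A, the main TNF receptor, fell to 25.1% (-2.0, SE 0.26, FDR 0.000201). TRAF6, a ubiquitin ligase downstream of several receptors, was at -1.31. Among the inhibitors, NFKBIA was at -1.79 (SE 0.29, FDR 0.00157) and NFKBIE at -2.22 (SE 0.38, FDR 0.000727). TNFAIP3, a deubiquitinase that ends NF-kB signalling, had an FDR of 0.0017 but missed the bound at -0.81. Of the NF-kB subunit genes, RELA was at -0.16 and NFKB2 at 0.12, and neither passed. In the whole list 15 of the 19 values were negative, and the highest, 1.19, did not pass. IRF1, an interferon-response factor outside the list, fell by 1.72 (SE 0.16, FDR 1.52e-06) at a high level of 5.75.

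The bases before the start sites of 3 of these genes and SOCS1 are shown as examples of lower genes with and without a match to the NF-kB consensus. The sequences are RefSeq, build GRCh38.p14, the 250 bases before the start, 5′ to 3′ on the gene's strand, which is the minus strand for all 4. Capitals mark matches to the NF-kB consensus on either strand and, in NFKBIA, also TTTATA, the reverse complement of TATAAA. The regions are chr14:35404750-35404999 for NFKBIA, chr5:132490774-132491023 for IRF1, chr16:11256205-11256454 for SOCS1 and chr12:6342077-6342326 for TNFRSF1A.
NFKBIA: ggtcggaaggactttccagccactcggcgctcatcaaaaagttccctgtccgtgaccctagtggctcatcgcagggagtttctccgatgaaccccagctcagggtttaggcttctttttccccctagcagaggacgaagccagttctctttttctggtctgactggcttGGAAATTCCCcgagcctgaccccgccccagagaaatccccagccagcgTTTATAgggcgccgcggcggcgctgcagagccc
IRF1: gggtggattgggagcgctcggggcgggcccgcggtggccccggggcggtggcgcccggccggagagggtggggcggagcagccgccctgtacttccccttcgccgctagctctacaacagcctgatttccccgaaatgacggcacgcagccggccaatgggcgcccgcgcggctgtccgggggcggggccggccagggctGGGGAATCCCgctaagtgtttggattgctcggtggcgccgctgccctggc
SOCS1: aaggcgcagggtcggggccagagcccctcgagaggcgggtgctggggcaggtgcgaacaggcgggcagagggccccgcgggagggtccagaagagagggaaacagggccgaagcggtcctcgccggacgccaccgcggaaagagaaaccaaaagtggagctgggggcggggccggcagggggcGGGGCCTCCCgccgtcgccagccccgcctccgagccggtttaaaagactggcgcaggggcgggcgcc
TNFRSF1A: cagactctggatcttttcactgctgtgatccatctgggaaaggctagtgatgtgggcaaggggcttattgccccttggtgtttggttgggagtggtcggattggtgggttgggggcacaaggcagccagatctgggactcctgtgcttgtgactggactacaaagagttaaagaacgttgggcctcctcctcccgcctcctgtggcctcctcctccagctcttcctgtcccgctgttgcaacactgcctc
The consensus starts 81 bases before the start in NFKBIA, 50 in IRF1 and 67 in SOCS1. TNFRSF1A has none of the 6 motifs searched (NF-kB, TATAAA, SRF, CRE, AP-1 and E-box) in this window. The 4 were picked from a larger set of lower genes. In that set HPS6 also had an NF-kB match, while FADD, CDKN1B, IER5 and PIM1 had none of the 6 motifs. Whether a motif bears on a fall was not tested. A match is a description of letters, and binding was not measured.

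The same motifs were counted in all lower genes. RefSeq windows of 300 bases, from 250 before to 50 after the start, were found for 367 of the 444 lower genes (515 windows). The NF-kB consensus was in 10.3% of these, in 12.7% of the windows of all listed genes and in 11.3% of all 35116 windows of the reference. It was in 8 of 30 windows of the higher genes (26.7%), in 4 of 19 of the lower immediate early feedback genes (21.1%) and in 7 of 30 of the listed NF-kB pathway genes (23.3%), sets with few windows. TATAAA on either strand was in 6.21% of the windows of the lower genes, 6.99% of those of all listed genes and 11.5% of those of the reference. The motifs that follow are given in the same order. CACGTG, an E-box, was in 8.35%, 9.54% and 7.26%. TGACGTCA, the cyclic AMP response element, was in 4.08%, 2.78% and 1.85%. TGACTCA, the AP-1 site, was in 3.11%, 3.25% and 4.95%. The SRF consensus was in 0.777%, 1.16% and 1.29%. The median GC content was 64.0% in the lower genes, 64.7% in all listed genes and 58.7% in the reference. These shares are descriptions with no test, and windows of 1 gene can overlap.

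Of the TGF-beta and SMAD genes, 5 of 11 listed fell (45.5%), with a median of -0.84, and 9 of the 11 were lower on the mitochondrial scale (81.8%). TGIF1 (-1.76, FDR 0.00162) and TGIF2 (-1.46, SE 0.16, FDR 7.7e-06) are homeobox corepressors that bind SMAD proteins. TGFBR2, a receptor for the ligand, fell to 38.3% (-1.38, SE 0.19, FDR 5.65e-05). PMEPA1, a feedback inhibitor of the pathway, was at -1.04 and the BMP receptor BMPR1A at -1.02. SMAD3, a signal transducer, was at -0.60 with an FDR of 0.38. Among the 17 listed cytokine receptor and JAK-STAT genes, 3 fell (17.6%), with a median of -0.39, and 8 were lower on the mitochondrial scale (47.1%). They were SOCS1, SOCS3 and the erythropoietin receptor EPOR (-1.48, FDR 0.0174), while STAT5B (0.29) did not pass.

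CDKN1B, which encodes the cell-cycle inhibitor p27, had the largest fall among genes at or above the median level. It was at -2.16 (SE 0.28, 95% interval -2.75 to -1.57, FDR 0.000273), or 22.4% of DMSO. In its list of G1 regulators 4 of 16 fell (25%), with a median of -0.70 and 11 of 16 lower on the mitochondrial scale (68.8%). The other 3 promote entry into S phase: CCNE1, cyclin E (-1.18, FDR 0.011), E2F2 (-1.16, SE 0.14, FDR 1.73e-05) and CDC25A, a phosphatase that activates cyclin-dependent kinases (-1.10, FDR 0.000535). Both the inhibitor and the promoters of S phase were thus lower. Mitotic genes differed little from the whole list: 2 of 30 fell (6.67%), with a median of -0.22, and 8 were lower on the mitochondrial scale (26.7%). These were CCNF (-1.13, SE 0.13, FDR 7.74e-06) and FBXO5 (-1.09, FDR 0.0201), both F-box proteins that act in ubiquitin control of the cell cycle, while CDK1 was at 0.03 and TOP2A at 0.25. PPM1D, a phosphatase in the feedback loop of p53, fell by 1.69 (SE 0.18, FDR 3.83e-06). It and PLK3 were the 2 of 10 listed p53 targets that fell (median -0.64), and 6 of 10 were lower on the mitochondrial scale.

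Among transcriptional kinases and the 7SK complex, 2 of 10 listed genes fell (median -0.29), and 3 of 10 were lower on the mitochondrial scale. MEPCE, the enzyme that caps 7SK RNA in the complex that holds P-TEFb inactive, had the smallest FDR of all 444 lower genes, 5.32e-07, at -1.42 (SE 0.13) and a high level of 6.52. ELL, an elongation factor, was at -1.13 (FDR 0.00034). CCNT1, the cyclin partner of CDK9, was at -0.59 (FDR 0.18), and CDK9 and HEXIM1 are not listed. In the polymerase II and Mediator list 5 of 34 fell (14.7%, median -0.27), and 13 were lower on the mitochondrial scale (38.2%). They were the Mediator subunits MED9 (-1.71, FDR 0.00025), MED17 (-1.46, FDR 5.33e-05) and MED8 (-1.11), the TFIID subunit TAF5 (-1.38) and the TFIIE subunit GTF2E1 (-1.29). The polymerase subunit POLR2B was at -0.03.

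Several regulators of T-cell leukaemia fell by smaller amounts. In that list 3 of 13 fell (23.1%, median -0.49), and 7 were lower on the mitochondrial scale (53.8%). The 3 were GATA3, a master factor of T-cell development (-1.38, SE 0.31, FDR 0.0362), BCL11A (-1.11, SE 0.16, FDR 0.000153) and ETS2 (-1.01, SE 0.14, FDR 8.44e-05). IKZF1 had an FDR of 0.003 at -0.63. MYC was at -1.03 with an interval from -1.63 to -0.43, but its FDR of 0.0685 did not pass. MCL1, a short-lived survival protein of the BCL2 family, had an FDR of 0.000329 and missed the bound at -0.99 (SE 0.16). On the mitochondrial scale both passed, at -1.70 and -1.67. None of the 3 listed genes of the MYC network, of 5 BCL2 family genes or of 8 NOTCH genes passed as deposited, while 2, 3 and 2 of them had an unadjusted p under 0.05. On the mitochondrial scale 2 of 3, 4 of 5 and 3 of 8 were lower. Of 20 T-cell receptor and recombination genes only RAG2, part of the recombinase, fell (-1.10, SE 0.24, FDR 0.0079). The median of that list was 0.01, and -0.66 on the mitochondrial scale, where 8 of 20 were lower.

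Regulators of chromatin and of mRNA and protein turnover were also among the lower genes. Of 39 chromatin genes 6 fell (15.4%, median -0.44), and 21 were lower on the mitochondrial scale (53.8%). The 6 were the deacetylase SIRT1 (-1.66, SE 0.24), ARID5B (-1.34), the Polycomb protein CBX2 (-1.14), the histone demethylase KDM2A (-1.06, SE 0.12, FDR 6.33e-06), the remodeller subunit ARID1A (-1.06, FDR 1.3e-05) and ARID4B (-1.04). Of 18 mRNA decay genes 4 fell (22.2%, median -0.05), and 8 were lower on the mitochondrial scale (44.4%). ZFP36L2 and ZFP36L1, which bind AU-rich elements and speed decay, were at -1.21 (SE 0.20) and -1.17 (SE 0.30), CNOT4 at -1.27 and the decapping cofactor DCP1B at -1.17. ZFP36L2 was the most abundant gene that fell, at a level of 8.05. Of 36 ubiquitin genes 7 fell (19.4%, median -0.57), and 22 were lower on the mitochondrial scale (61.1%). Among the 7 were KLHL26 (-2.04, SE 0.27), TRIM13 (-1.54), USP42 (-1.38) and FBXL12 (-1.22). NEDD9 (-1.79), counted in that list, is a signalling scaffold and not a ligase. In the circadian list 2 of 10 fell (median -0.55), the nuclear receptor NR1D1 (-1.89, FDR 0.000992) and TEF (-1.40), and 7 of 10 were lower on the mitochondrial scale.

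In the unfolded-protein list 3 of 20 fell (15%, median -0.51), and 0 rose. On the mitochondrial scale 11 of the 20 were lower (55%, median -1.19), beside 27.7% of all listed genes. CHAC1, which degrades glutathione, was at -3.76 (SE 0.84), but its level was 0.26. DNAJB9, a chaperone of the endoplasmic reticulum, was at -1.78 (SE 0.36) and the stress kinase EIF2AK3 at -1.04. DDIT3 (-1.81, FDR 0.085) and XBP1 (-0.81, FDR 0.41) did not pass. None of 16 chaperone, 12 oxidative-stress, 22 hypoxia and glycolysis or 17 splicing genes passed in either direction as deposited, and 4, 3, 1 and 2 were lower on the mitochondrial scale. Their medians were -0.05, -0.01, 0.08 and -0.01, and -0.73, -0.68, -0.59 and -0.69 on the mitochondrial scale. An unadjusted p under 0.05 was met by 3, 3, 5 and 3 of them, and an FDR under 0.05 without the bound by 1, 3, 5 and 0. KEAP1, the sensor of the oxidative-stress pathway, had an FDR of 0.0209 at -0.88. Ribosome biogenesis factors were near the background, with 2 of 38 lower (5.26%, median -0.21), UTP3 (-1.37) and POP7 (-1.01), and 11 of 38 lower on the mitochondrial scale (28.9%). Of 64 ribosomal protein genes 48 had an FDR under 0.05, but 0 passed the bound. Their median was 0.41 as deposited and -0.26 on the mitochondrial scale, where 1 was lower. RPL36A was the exception at -1.22, with an FDR of 0.132 and a level of 1.29.

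**Figure D2:**
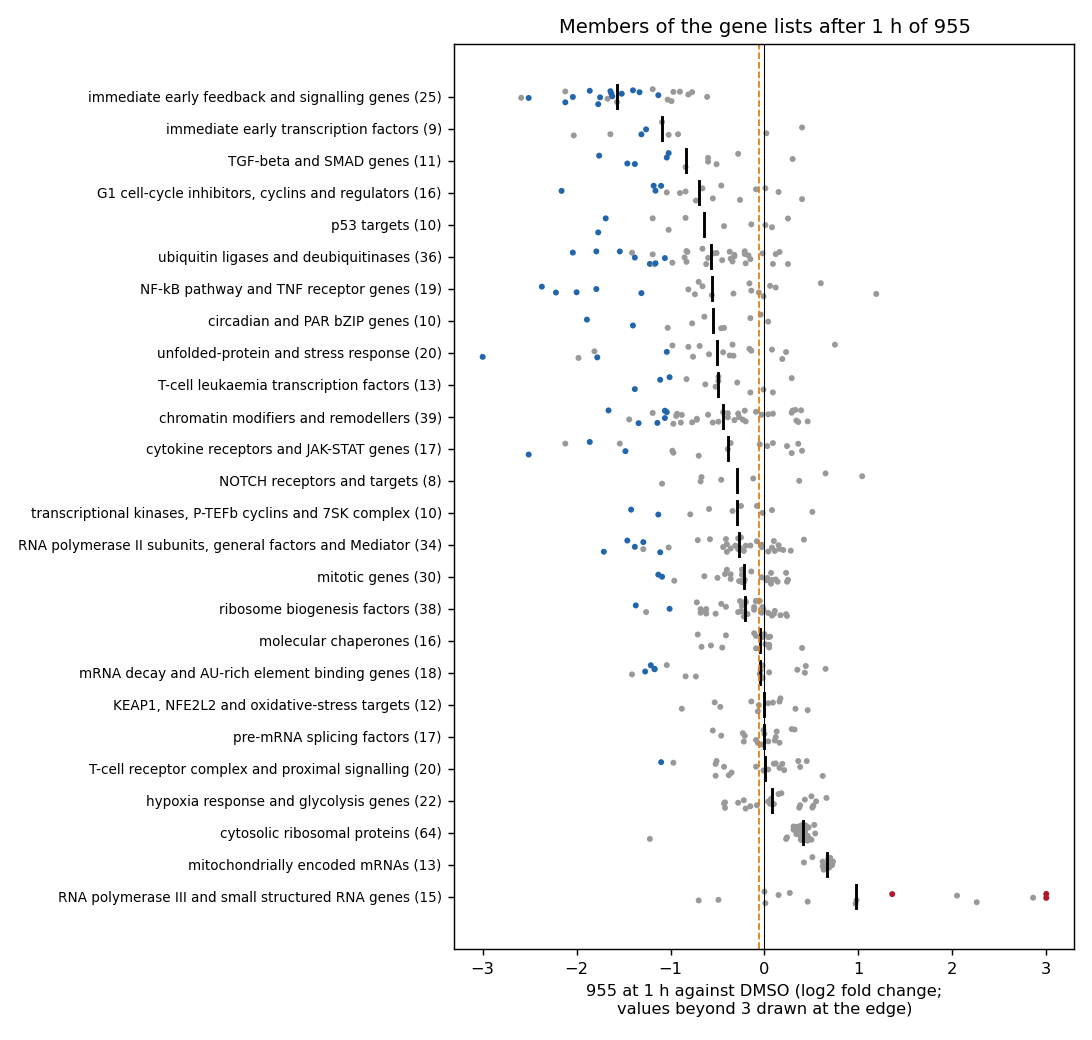
Each point is a listed member of 1 of the lists with at least 8 listed genes, with its log2 fold change at 1 h on the x axis; the number of listed members is in brackets, blue points fell, red points rose, grey points did not pass, black bars are list medians and the dashed line is the median of all listed genes (-0.054). The immediate early feedback list has its median at -1.57, and the ribosomal and mitochondrial lists form tight groups at 0.41 and 0.67.

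Outside the lists, which hold 68 of the 444 lower genes, other named genes had large falls at or above the median level. SLC38A2, an amino acid transporter, fell by 1.77 (SE 0.19) at a level of 6.22. MIDN, which encodes a nuclear protein that carries transcription factors to the proteasome, was at -1.66 (SE 0.17, FDR 2.37e-06). FAM111B was at -1.65 and the zinc finger factor ZNF281 at -1.64, both with an SE of 0.19. ZKSCAN2, of a related zinc finger family, was at -1.65 (SE 0.2, FDR 1.31e-05). Named for their FDRs, RIOX1, a histone and ribosomal protein hydroxylase (-1.93, SE 0.19, FDR 2.23e-06), and STK17B, a kinase linked to apoptosis (-1.37, SE 0.14, FDR 2.37e-06), were among the 5 smallest of the lower genes, with RIOX1 at a level of 4.06, below the median.

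The most numerous group was the zinc finger genes, most of which encode DNA-binding repressors. Of 205 listed protein-coding genes named ZNF with a number, 83 fell (40.5%) and 0 rose. The 83 were 18.7% of the lower genes, and ZNF genes were 3.56% of the listed genes. Of the 517 ZNF protein-coding genes in RefSeq the 83 are 16.1%, and how many of the 517 were tested is not known. Their median was -1.01, 188 of the 205 values were negative, and on the mitochondrial scale 162 were lower (79.0%, beside 27.7% of all listed genes). No other family with 20 or more listed members under shared opening letters came near this share: the next was MED, 3 of 20 (15%). Protein-coding genes were also split into 3 equal groups by level. In the lowest and middle groups 42.1% and 43.9% of ZNF genes fell, against 11% and 11.2% of all protein-coding genes. In the highest group 2 of 16 fell (12.5%), against 2.57%. The largest falls were in ZNF627 (-2.30, SE 0.50), ZNF436 (-2.15, SE 0.34) and ZNF823 (-2.12, SE 0.38), and the smallest FDR was that of ZNF367 (-1.35, SE 0.13). The highest value was 0.79, in ZNF878, which did not pass. Of the ZNF genes, 105 lie on chromosome 19 and 48 of these fell. Related families were chosen after their values were seen: 6 of 10 ZKSCAN or ZSCAN genes, 2 of 11 ZBTB genes and all 4 TIGD genes, which derive from transposases, also fell. Zinc finger genes of 1 cluster share sequence, and how reads that match several of them were counted is not given in the sources used here.

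The lower genes had few exons. Gene models were from GENCODE release 29, with 1 transcript a gene, and covered 5260 listed protein-coding genes, 435 of which fell (8.27%). The median number of exons was 4 in the lower genes and 8 in the listed genes. The share that fell dropped in steps with exon number, from 27.5% of genes with 1 exon (49 of 178) and 22.3% with 2, to 16.3% with 3 to 4, 7.45% with 5 to 8, 4.03% with 9 to 15 and 1.88% with 16 or more. Of 408 genes with 1 coding exon, 103 fell (25.2%), and on the mitochondrial scale 254 did (62.3%). Without the zinc finger families the share was 24.8%. By level it was 25.4%, 31.6% and 12.7% in the lowest, middle and highest group. Spearman's rho between exon number and log2 fold change was 0.33 across genes, which share the same libraries and are not replicates. Genes with 1 coding exon that fell include SOCS1, SOCS3, IER5, RIOX1, CCRL2 (-2.86), METTL18 (-2.82), HPS6 (-2.58), CCDC71 (-2.31) and FRAT2 (-1.94). Lower genes also had a shorter span (median 12400 bases against 21300), but a longer spliced transcript (3470 against 2910 bases) and 3′ UTR (1320 against 928 bases). The 3′ UTR held a median of 2 ATTTA pentamers, the core of AU-rich elements, against 1. Per 1000 bases of UTR the medians were 1.72 and 1.48.

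**Figure D3:**
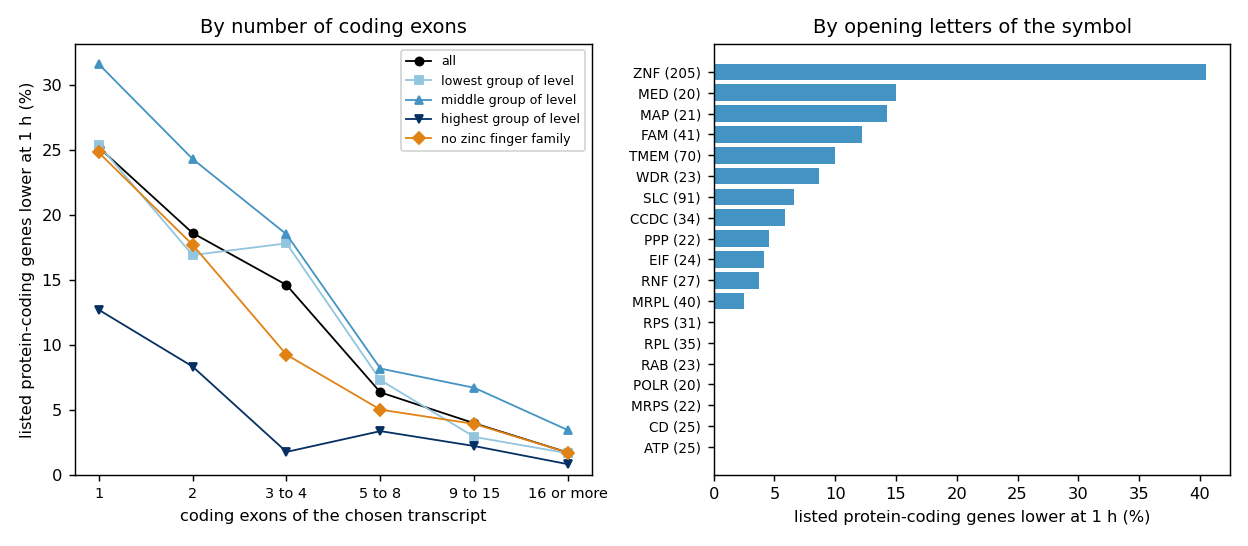
The left panel gives the share of listed protein-coding genes that fell at 1 h (%) by number of coding exons, for all genes, by 3 equal groups of average level and without the zinc finger families; the right panel gives the same share for families of at least 20 listed genes with shared opening letters. The share falls from 25.2% with 1 coding exon to 1.7% with 16 or more, and the ZNF genes stand at 40.5%.

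The 42 genes that rose were of another kind. Only 18 were protein-coding, 0.342% of the listed protein-coding genes, while 9 of 259 long noncoding RNAs (3.47%) and 7 of 143 transcribed pseudogenes (4.9%) rose. A further 4 were gene IDs with no match in RefSeq, and 1 each was a miRNA, a snRNA, a snoRNA and the RNase P RNA. The libraries were made with an mRNA kit. MIR3648-1, whose sequence lies in the external spacer of ribosomal RNA precursors, was highest at 6.02 (SE 0.48), or 64.9-fold. Gene ID 100500815, which is not matched, was at 5.74 (SE 0.34) with the smallest FDR of the comparison, 5.61e-10. MIR3648-1 lies in repeated sequence, so its reads could come from several copies. For the unmatched ID this is not known. At low average levels RNU11, a snRNA of the minor spliceosome, was at 4.77 (SE 0.82), SNORD13 at 4.78 (SE 1.32) and the gene NUP210L at 4.97 (SE 0.88). Their levels of 1.92, 1.44 and 0.23 are averages that include the groups where they are high. RPPH1, the RNA of RNase P and a polymerase III product, was at 1.36 (SE 0.29, FDR 0.00757). In the list of polymerase III and small structured RNA genes, 3 of 15 listed rose (MIR3648-1, RNU11 and RPPH1) and 0 fell, with a median of 0.97, or 0.30 on the mitochondrial scale, where 2 of the 15 were higher. The list does not hold every small RNA. Outside it 1 of 5 listed tRNA genes, TRA-TGC4-1, fell, and of 11 listed snoRNAs 1 fell and 1, SNORD13, rose. RN7SK, the 7SK RNA itself, was at 0.27 (FDR 0.93).

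The next 4 rises lay at or above the median level of 4.15, a level that averages all groups, including 955 at 6 h, where each value was above that at 1 h. CBS (4.25), RPPH1 (4.19), MZF1 (4.44), MIR3648-1 (4.39), LOC105371414 (5.68) and MIAT (6.16) may all pass it for that reason. Their levels in DMSO alone are not known. LOC105371414, a long noncoding RNA, was at 2.01 (SE 0.17, FDR 3.06e-07). MIAT, also noncoding, was at 1.16 (SE 0.27), CBS, an enzyme on the path from homocysteine to cysteine, at 1.17 (SE 0.27), and the zinc finger factor MZF1 at 1.15 (SE 0.20). MIAT, CBS, MZF1 and RPPH1 did not pass on the mitochondrial scale, where they were at 0.48, 0.49, 0.48 and 0.69. LOC105371414, MIR3648-1 and RNU11 stayed past the threshold on that scale. Several of the 42 are near copies of other genes, such as SMG1P3 (1.22), SMG1P5 (1.25), SLC7A5P2 (1.76), PARGP1 (1.05) and the histone gene H3C10 (1.53), and reads could be split between copies. Use of strand is not given in the sources used here, so reads of the antisense RNAs PITX1-AS1 (-2.92, SE 0.55) and UCKL1-AS1 (1.65) cannot be told apart from those of the genes they overlap. TRA-TGC4-1, a tRNA gene, had the lowest value of all, -5.81 (SE 1.07) at a level of 1.20, with a value of 4.58 at 6 h.

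The 955 group at 6 h shares its DMSO samples with the 1 h group, so the values are set side by side and their likeness is not used as a result. The 444 lower genes had a median of -1.32 at 1 h and -1.58 at 6 h, and the 42 higher genes had medians of 1.41 and 2.88. DMSO cancels in the difference between the times, which was tested with an approximate contrast over all listed genes. By that contrast 1556 listed genes (27.0%) were higher at 6 h than at 1 h, and 2053 (35.6%) were lower, by at least 2-fold at an adjusted p under 0.05, as deposited. Of the 444 lower genes 87 were lower still at 6 h and 40 were higher, and of the 42 higher genes 26 were higher still and 0 lower. These counts are not read against the 27.0% and 35.6%. Of all listed genes, 5670 passed the threshold in a 6 h comparison, so the list was chosen largely by values at 6 h. Those values enter the difference, and the adjustment was made over the same list. The 1 h value that chose the 444 and the 42 genes enters it too, so the counts are descriptions. They and the medians are on the deposited scale. With the mitochondrial mRNAs at 0 at both times, every difference is lower by 1.4. The median difference as deposited was 1.22 in the 42 higher genes and -0.18 in the 444 lower genes, so both are negative on the mitochondrial scale.

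Early falls took different courses. CDKN1B was at -2.16 at 1 h and -2.22 at 6 h, IRF1 at -1.72 and -1.61, SIRT1 at -1.66 and -1.70, and RIOX1 at -1.93 and -1.97. In these 4 genes the difference between the times was within its error on the deposited scale only. The median of the mitochondrial mRNAs was 0.67 at 1 h and 2.07 at 6 h, and with them at 0 at both times the differences were -1.46, -1.29, -1.43 and -1.43 in that order, all past the threshold of the contrast. The next genes were lower at 6 h on both scales, and the values are as deposited. CCNF went from -1.13 to -3.17 (difference -2.04, SE 0.13), and ETS2 from -1.01 to -2.71. MYC, which did not pass at 1 h, was at -3.07 at 6 h (difference -2.04, SE 0.28, adjusted p from the contrast 5.23e-05), and KEAP1 went from -0.88 to -3.53. Other genes were higher at 6 h than at 1 h on the deposited scale. FOSL2 went from -1.31 to 1.78 (difference 3.09, SE 0.32), above DMSO, and was 1.69 higher at 6 h on the mitochondrial scale. Nearer to DMSO at 6 h were ZNF367 from -1.35 to 0.53 (1.89, SE 0.13), TGFBR2 from -1.38 to 0.08 (1.46, SE 0.18) and E2F2 from -1.16 to 0.04 (1.20, SE 0.14). With the mitochondrial mRNAs at 0 at both times, the differences of TGFBR2 and E2F2 were 0.07 and -0.19 and did not pass, and that of ZNF367 was 0.49. BCL6, a repressor (-1.64 and 0.36), MAP3K14, a kinase of NF-kB signalling (-1.48 and 0.09), and E2F7 (-1.25 and 0.01), named here after their values were seen, were also nearer to DMSO at 6 h as deposited. Their differences were 0.61, 0.17 and -0.13 on the mitochondrial scale and did not pass.

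**Figure D4:**
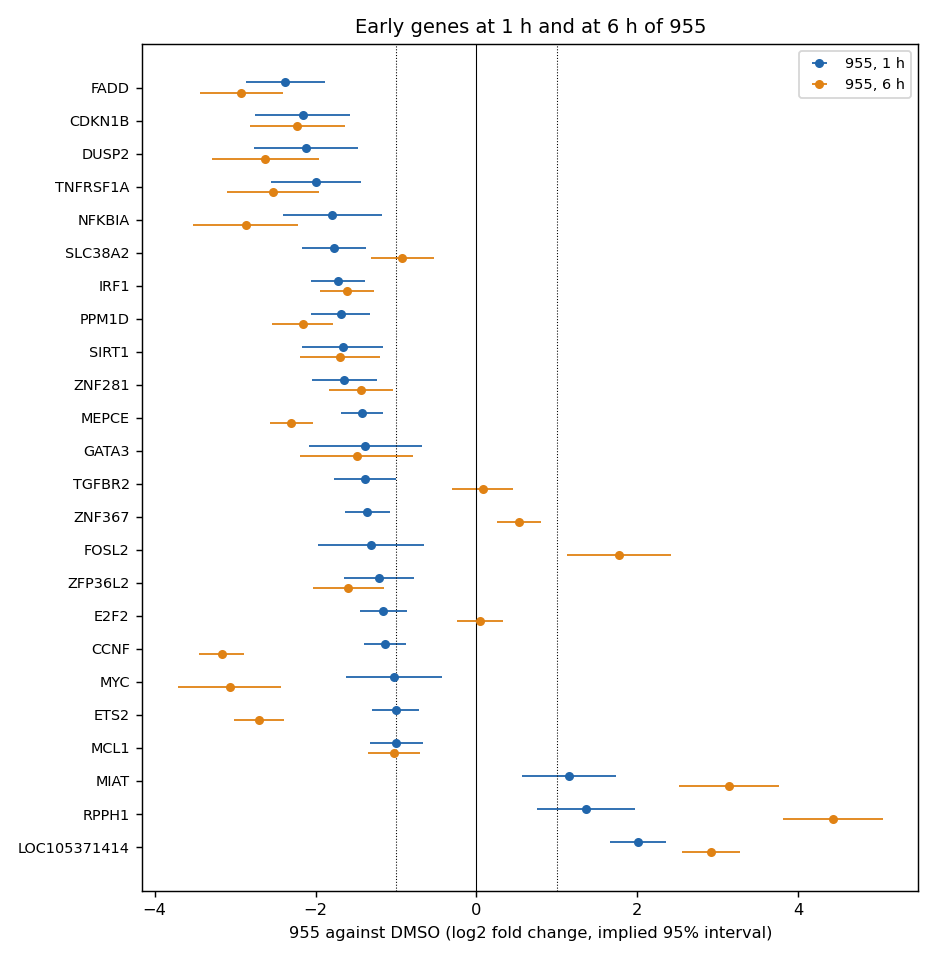
For 24 named genes the log2 fold change of 955 against DMSO is drawn at 1 h (blue) and 6 h (orange), with 95% intervals derived from F. On this deposited scale CDKN1B, IRF1, SIRT1 and MCL1 overlap at both times, CCNF, MYC and ETS2 are lower at 6 h, and TGFBR2, ZNF367, FOSL2 and E2F2 lie nearer to or above DMSO at 6 h.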

How the data were processed

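MOLT4 RNA was sequenced in 12 samples. Libraries were made from total RNA with an mRNA kit, per the labels' protocols. The submitters' processing notes name the build hg38 and the tool DESeq2, with no role. The aligner, the counter and its use of strand are not given in the sources used here. The deposited log fold change and average log CPM were read as log2. That base was inferred from the bound of 1 on the absolute log fold change of the listed genes. F is used as a score that the authors deposited, and the p-value and FDR were used as the authors deposited them. No counts per sample were used, so the depth is unknown.

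The SE is the absolute log2 fold change over the root of F. Intervals used the denominator degrees of freedom recovered from F and p. The contrast of 6 h with 1 h used the root mean square of both SEs and Benjamini-Hochberg adjustment over 5759 genes. The design assumed counts or this table, so the authors' FDR is the test. IDs were matched to RefSeq (5727 of 5759), with 5613 given a GENCODE model. Python 3.11.15, scipy 1.17.1 and pandas 2.3.3 were used, and scripts were tested on simulated data.

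The 81 named genes are the 10 largest falls and 6 largest rises at or above the median level, the 5 smallest FDRs among falls, up to 4 passing members of each of 28 lists, key genes (MYC, MCL1, CDKN1B, NFKBIA, TNFRSF1A, CCNT1, FOS, JUNB, IER2, IER5, KEAP1 among them) and up to 3 low-level genes each way. Other genes were named after their values were seen. The members and lists were chosen with earlier results of these data known. Other thresholds, adjustments, level filters and scales were tried.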

Additional observations from a re-analysis of the deposited data

Results flagged for a closer look

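The difference between 955 at 6 h and 955 at 1 h passed the threshold of the approximate contrast (at least 2-fold, adjusted p under 0.05) in 28 of the 81 named genes, which is what singled them out. DMSO cancels in this difference, and the genes were named partly for the 1 h value that enters it. All values are log2.

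Of the 28, 12 were lower at 6 h than at 1 h. KEAP1 had a difference of -2.65, POP7, a protein of RNase P, -2.13, and MYC and CCNF -2.04 each. RAG2 was at -1.92, ETS2 at -1.70, the decapping cofactor DCP1B at -1.59 and NR1D1 at -1.38. PMEPA1 was at -1.32, USP42 at -1.27, FBXO5 at -1.23 and NFKBIA at -1.08.

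The other 16 were higher at 6 h on the deposited scale. Among structured RNAs the differences were 10.38 for TRA-TGC4-1, 5.05 for SNORD13, 3.40 for RNU11 and 3.08 for RPPH1. Among protein-coding genes FOSL2 was at 3.09, CHAC1 at 2.84, NUP210L at 2.62, SOCS3 at 2.0, ZNF367 at 1.89 and IER2 at 1.78. TGFBR2 was at 1.46, CBS at 1.29, E2F2 at 1.20, ARID5B at 1.18 and SOCS1 at 1.12, and the noncoding RNA MIAT was at 1.98. CHAC1, SOCS3 and NUP210L had average levels under 1 log2 CPM. With the mitochondrial mRNAs at 0 at both times, 5 of the 16 kept their call (FOSL2 and the 4 structured RNAs), 7 did not pass and 4 turned direction, while all 12 that were lower kept it. The 7 were CHAC1 (1.45), NUP210L (1.22), SOCS3 (0.61), MIAT (0.59), ZNF367 (0.49), IER2 (0.38) and TGFBR2 (0.07), and the 4 were ARID5B (-0.21), CBS (-0.11), E2F2 (-0.19) and SOCS1 (-0.27).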

How the results depend on the processing

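No paired analysis was possible because the deposited columns are comparisons and carry no value per sample. For the same reason leaving out replicates and other count tools were not run, and 1 library's weight in a value was not tested. As deposited, 486 genes passed at 1 h, 42 higher and 444 lower. With an FDR under 0.01 the higher genes were 24. With no bound on the fold 958 passed (272 higher, 686 lower), and with a log2 bound of 1.5 it was 161 (19 and 142). Adjustment over the listed genes alone gave 77 higher. With mitochondrial mRNAs at 0, 1608 passed (11 and 1597), and with ribosomal protein genes at 0, 977 (14 and 963). At or above the median level 141 passed (8 and 133), and among protein-coding genes 18 were higher. An FDR under 0.1, the listed median at 0 and a level of at least 1 log2 CPM kept all 3 counts within 1.5 times.

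Of the 81 named genes, 69 kept their direction and side of the threshold on the mitochondrial scale. On it FOS was at -0.28, CBS at 0.49, MIAT at 0.48, MZF1 at 0.48, RPPH1 at 0.69 and SNORD13 at 4.11 (FDR 0.0508) did not pass, and 6 genes came to pass (CCNT1 -1.27, IER2 -1.44, JUNB -1.59, KEAP1 -1.55, MCL1 -1.67, MYC -1.70). Adjusted over the listed genes alone, MYC passed (FDR 0.0185) and the other 80 did not change sides. Named genes with a difference between the times were 28, and 55 on the mitochondrial scale, where ARID5B (-0.21), CBS (-0.11), E2F2 (-0.19) and SOCS1 (-0.27) turned direction. With the shared control ignored, NUP210L and SOCS3 did not pass (adjusted p 0.0634 and 0.0563).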
